A study of Mus musculus with 9 samples.

Results

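Long intergenic non-coding RNAs (lincRNAs) that were well expressed in the mouse egg numbered 211, out of 2968 lincRNA genes (7.11%) and 30153 genes of all kinds in the joined count tables. A gene was taken when the deposited annotation called it lincRNA and its mean level over the 9 libraries was 5 CPM or more (CPM is the read count scaled to a common library total). The rule left out 7 RNAs by name (Malat1, Neat1, Gm26917, H19, Meg3, Rian and Mirg), of which Malat1 and Gm26917 would have passed. Because level chose the members, levels are given below as a description, with no test. Just inside the limit stood Gm11884 at 5.12 CPM, Gm31452 at 5.04 CPM and Gm45277 at 5.01 CPM. Just outside stood Gm47847 at 4.97 CPM, Gm35167 at 4.95 CPM and AC154187.1 at 4.93 CPM.

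The libraries came from pools of metaphase II (MII) oocytes, the ovulated eggs that wait in the second meiotic division for fertilisation. All donors were 4-week-old females of mixed genetic background and of genotype Sycp3CreERT2/+; Rosa26nT-nG/+, so every group carried both alleles. Sycp3CreERT2 is an inducible Cre recombinase under the meiotic gene Sycp3, and Rosa26nT-nG gives nuclear red fluorescence before and nuclear green fluorescence after recombination. Females were superovulated with 5 IU PMSG and, 48 h later, 5 IU hCG, and oocytes were taken 13 h after hCG and freed of cumulus cells. Eggs were picked by eye into GFP High (pools of 15, 15 and 16 oocytes), GFP Low (49, 52 and 57) and RFP (87, 88 and 100), giving 3 libraries per group. The time of tamoxifen treatment was not analysed here. Library totals lay between 19381677 and 27746256 counts, so that 5 CPM rested on 96.9 reads in the smallest library. Counts of the reporter eGFP were 869 to 1081 in GFP High, 282 to 662 in the GFP Low pools and 0 to 16 in RFP, and those of tdTomato were 0 to 2, 16 to 35 and 46 to 94. All 12 oocyte marker genes checked (among them Zp3, Gdf9 and Mos) were at 5 CPM or more, with summed levels of 9310 to 11299 CPM.

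LincRNAs are transcribed from their own genes between protein-coding genes, are mostly spliced and polyadenylated, and encode no known protein. The growing mouse oocyte makes many of them, a share from promoters inside transposable elements, and stores them beside the maternal mRNAs; transcription then ceases before ovulation, so an MII egg holds what was made and kept earlier. Mouse oocytes also run an unusually active RNA interference pathway, in which Dicer cuts double-stranded RNA, including pairs of antisense pseudogene transcripts and mRNAs, into endogenous small interfering RNAs.

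The most abundant of the lincRNAs was C86187, listed by RefSeq under the synonym Sirena1, a polyadenylated oocyte RNA known as a source of small interfering RNAs. Its gene lies at chr7:46967711-46975911 on the minus strand of GRCm38, overlaps no other listed gene, and its longest annotated transcript has 4 exons and 2415 bases. The promoter window, from 250 bases before to 50 after the start (RefSeq, GRCm38.p6, chr7:46975862-46976161, minus strand), is shown because this RNA alone supplied 11.7 to 13.3% of all counts of the 211 lincRNAs. Capitals mark the single TATAAA, which begins 25 bases before the start.
C86187: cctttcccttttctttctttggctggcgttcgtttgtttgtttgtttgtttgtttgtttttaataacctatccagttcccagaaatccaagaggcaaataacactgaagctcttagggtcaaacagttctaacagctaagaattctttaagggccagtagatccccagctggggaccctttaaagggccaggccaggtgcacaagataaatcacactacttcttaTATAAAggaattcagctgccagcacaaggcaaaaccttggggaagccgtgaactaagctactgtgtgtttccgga

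Of the 211 lincRNAs, 98 had a RefSeq promoter window under the same symbol, and in 62 of these the RefSeq start lay within 100 bases of the GENCODE start. For 17 of the 98 (17.3%), at least 5 genes elsewhere had a similar window (75% identity or more over 100 bases or more), against 8.53% of all 9533 lncRNA genes with a window. The largest such group among the members joined Gm3143, Gm19299, Gm17751 and Gm8817. The windows of the 3 with the highest levels are printed to show what they share. They come from 3 chromosomes: Gm3143 at chr3:34716613-34716912 on the minus strand, Gm19299 at chr9:67133311-67133610 on the plus strand and Gm17751 at chr1:76488883-76489182 on the plus strand. Capitals mark the 7 runs of 8 or more bases that all 3 windows hold in the same order, 73 bases in all, the longest of 14 bases.
Gm3143: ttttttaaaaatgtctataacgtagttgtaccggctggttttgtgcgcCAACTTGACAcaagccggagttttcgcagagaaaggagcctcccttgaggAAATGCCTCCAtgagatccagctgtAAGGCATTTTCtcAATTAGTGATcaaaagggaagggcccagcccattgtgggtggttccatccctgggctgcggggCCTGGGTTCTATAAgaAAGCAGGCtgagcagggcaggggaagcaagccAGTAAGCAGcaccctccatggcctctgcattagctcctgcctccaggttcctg
Gm19299: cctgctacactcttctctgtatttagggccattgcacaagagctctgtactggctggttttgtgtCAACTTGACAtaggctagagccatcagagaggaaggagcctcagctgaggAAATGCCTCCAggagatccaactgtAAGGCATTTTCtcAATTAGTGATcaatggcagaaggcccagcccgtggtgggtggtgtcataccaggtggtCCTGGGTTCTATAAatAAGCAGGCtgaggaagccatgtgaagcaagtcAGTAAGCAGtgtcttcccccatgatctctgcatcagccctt
Gm17751: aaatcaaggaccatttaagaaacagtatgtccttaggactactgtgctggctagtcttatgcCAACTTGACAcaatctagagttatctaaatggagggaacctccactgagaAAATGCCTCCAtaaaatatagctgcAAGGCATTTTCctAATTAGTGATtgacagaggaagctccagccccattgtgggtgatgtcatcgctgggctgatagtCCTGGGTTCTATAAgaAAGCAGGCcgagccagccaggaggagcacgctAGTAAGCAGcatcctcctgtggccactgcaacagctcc
Aligned pairs within this group were 76.2 to 78.7% identical over 214 to 260 bases. Gm3143 was by far the highest of them, with FPKM values (fragments per length and library total, the authors' level per length) of 237, 375 and 220 in GFP High, 254, 261 and 203 in the GFP Low pools and 273, 281 and 205 in RFP. Gm19299 had 38.6 to 68.4 FPKM, Gm17751 had 21.2 to 28.5 FPKM and Gm8817 had 4.92 to 16.1 FPKM over the 9 libraries. A shared window thus went with levels that differed widely. Among 46 further genes with a window like these, 9 (19.6%) were at 5 CPM or more. Of the 46, which were genes of any kind, 18 were listed and the others were counted as under 5 CPM. With the members likewise left out, the share was 25.5% of all genes with a window. For lncRNA genes with a window it was 0.773%, but leaving out members chosen for 5 CPM or more lowers that share by rule. The lncRNA share is therefore no background for the 46 genes. A second group joined BC002059 and Gm6712, whose windows were 95.4% identical over 259 bases, and Gm32856, whose window was 78.9% identical to that of Gm6712 over 109 bases.

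Motifs were searched in the 98 windows and in all 32851 windows, of which those of lncRNA genes are given as a class. TATAAA, on either strand, stood in 17.3% of the members' windows, 13.6% of all windows and 15.5% of lncRNA windows. CCAAT stood in 42.9%, 37.4% and 36% of these, and CACGTG in 8.2%, 7.2% and 5.9%. In 4 members (4.1%), TATAAA on the gene's strand lay within 15 to 45 bases before the start, against 2.1% of all windows and 1.2% of lncRNA windows. The median GC content was 49.3% against 52.7%, and the median ratio of observed to expected CpG was 0.24 against 0.38, while lncRNA windows as a class had 48.3% and 0.24.

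C86187 was also read against every listed transcript for antisense matches, at a lower identity than the other lincRNAs. The others were not searched at this setting, so no share over them can be given, and no limit on the number of genes matched was applied. Its bases 150 to 661 (21.2% of the transcript) matched the complement of Elob, a subunit of elongin and of ubiquitin ligases. The identity was 79.3% over 516 aligned bases, of which 0 were coding in the matched transcript. Within the same stretch, bases 261 to 541 matched the complement of Elobl, an Elob-like gene, at 75% identity over 284 bases, all of them coding. The longest stretch of exact complementarity was 25 bases to Elob and 15 bases to Elobl. Further genes were matched over stretches shorter than that to Elob, such as Eef2k at 75.5% identity over 184 bases and Anapc5 at 74.5% over 188 bases. Elobl was itself among the abundant mRNAs, with 792 FPKM on average and 694 to 957 FPKM over the libraries, while Elob had 9.0 FPKM on average. For Elobl the log2 fold change was 0.20 (SE 0.13) for GFP High against RFP and 0.03 (SE 0.09) for GFP Low against RFP, and it passed edgeR's test in neither comparison (adjusted p = 0.997 and 1.0).

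A stricter setting asked for 85% identity over at least 200 bases to the complement of a transcript of a protein-coding gene at another locus. Of the 210 lincRNAs with a GENCODE transcript, 11 (5.24%) had such a match, against 51 (1.85%) of the other 2757 lincRNAs. The matched transcript need not itself be coding. That of Fbxw19 for Gm32856 and that of Smchd1 for AC173344.1 had no annotated coding sequence. Only lincRNAs with antisense matches to at most 5 genes, shorter matches included, were counted. A further 35 of the members and 447 of the other lincRNAs matched more genes and were left out, so both shares depend on this limit. The 3 longest matches are shown, each as the lincRNA stretch and the mRNA stretch it mirrors, both written 5′ to 3′ as RNA-sense DNA letters of GENCODE M21. Capitals mark the longest run in which the strands are complementary base by base, and 15 neighbouring bases on each side are in lower case. Gm4961 (chr5:30096248-30096377, plus strand) mirrors coding sequence of Kif2c, a microtubule-depolymerising kinesin that corrects chromosome attachment (chr4:117160381-117162235, minus strand).
Gm4961: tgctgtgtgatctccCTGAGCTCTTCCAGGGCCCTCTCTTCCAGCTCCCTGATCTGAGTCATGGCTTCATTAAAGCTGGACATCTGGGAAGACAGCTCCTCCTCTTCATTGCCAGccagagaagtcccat
Kif2c: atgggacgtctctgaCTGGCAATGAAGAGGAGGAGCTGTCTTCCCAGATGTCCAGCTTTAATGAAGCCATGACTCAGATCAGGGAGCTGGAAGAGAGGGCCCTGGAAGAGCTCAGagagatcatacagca
Gm10857 (chr2:6133207-6133327, plus strand) mirrors coding sequence of Traip, a ubiquitin ligase of the DNA replication stress response (chr9:107962314-107963331, plus strand).
Gm10857: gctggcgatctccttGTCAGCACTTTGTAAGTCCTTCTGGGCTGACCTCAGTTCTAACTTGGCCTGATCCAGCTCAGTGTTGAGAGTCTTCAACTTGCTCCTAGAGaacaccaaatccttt
Traip: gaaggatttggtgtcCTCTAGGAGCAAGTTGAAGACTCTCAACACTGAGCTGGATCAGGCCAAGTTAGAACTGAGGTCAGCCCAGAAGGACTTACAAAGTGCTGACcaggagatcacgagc
Gm13346 (chr2:19678060-19678164, minus strand) mirrors coding sequence of G3bp1, an RNA-binding protein that nucleates stress granules (chr11:55496227-55497736, plus strand).
Gm13346: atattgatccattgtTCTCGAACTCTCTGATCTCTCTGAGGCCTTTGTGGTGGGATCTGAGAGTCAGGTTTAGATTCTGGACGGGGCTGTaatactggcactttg
G3bp1: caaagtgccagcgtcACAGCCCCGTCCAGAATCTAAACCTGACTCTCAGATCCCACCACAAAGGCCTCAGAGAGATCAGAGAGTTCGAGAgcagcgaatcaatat
In each lincRNA the printed stretch lies within 1 exon, whereas in Kif2c and Traip it runs across 3 exons and in G3bp1 across 2 exons. The lincRNAs therefore hold the joined exon sequence of the mRNA without its introns. The whole match of Gm4961 covered 1687 aligned bases at 88.0% identity and 73.4% of its longest transcript, that of Gm10857 covered 1275 bases at 89.4% identity, and that of Gm13346 covered 1968 bases at 85% identity. The fourth, D030018L15Rik, matched the complement of coding sequence of Ncoa2, a nuclear receptor coactivator, over 543 bases at 93.6% identity. In the other 7 lincRNAs the longest match had 226 to 297 aligned bases.

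In the 4 longest pairs both RNAs were present in every library, at levels given here on the FPKM scale. Gm4961 had 41.5, 37.9 and 31.4 FPKM in GFP High, 37.6, 36.8 and 36.6 in the GFP Low pools and 43.1, 37.7 and 37.5 in RFP. Kif2c had 54.0, 65.0 and 50.4 FPKM, 53.8, 49.9 and 50.9 FPKM, and 50.2, 49.7 and 52.9 FPKM in the same groups. Both RNAs of the pair were thus present at 31.4 FPKM or more in every library, and the groups overlapped for both. Gm10857 averaged 14.4 FPKM and Traip 3.99 FPKM. Gm13346 averaged 6.79 FPKM and G3bp1 4.47 FPKM. Of the other pairs, D030018L15Rik and Ncoa2 averaged 8.34 and 10.7 FPKM, Gm29811 and the chaperone Hsp90ab1 23.6 and 240 FPKM, and Gm47432 and Dcaf5 157 and 7.27 FPKM. For Gm4961 the log2 fold change of GFP High against RFP was −0.11 (SE 0.14) and for Kif2c 0.14 (SE 0.11), and edgeR's adjusted p was 0.997 for both.

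Levels across the 211 lincRNAs fell off steeply. There were 18 at 100 CPM or more, 21 at 50 to 100 CPM, 35 at 20 to 50 CPM, 56 at 10 to 20 CPM and 81 at 5 to 10 CPM, with a median of 13.3 CPM. Of all, 148 were at 5 CPM or more in every library and 207 were at 1 CPM or more in every library. In the plot of levels by rank, C86187 at the top had a narrow range over libraries for its level (1134.6 to 1223.5 CPM). Others near the top, such as Gm3143 and Gm36480, ranged more widely for theirs.

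**Figure D1:**
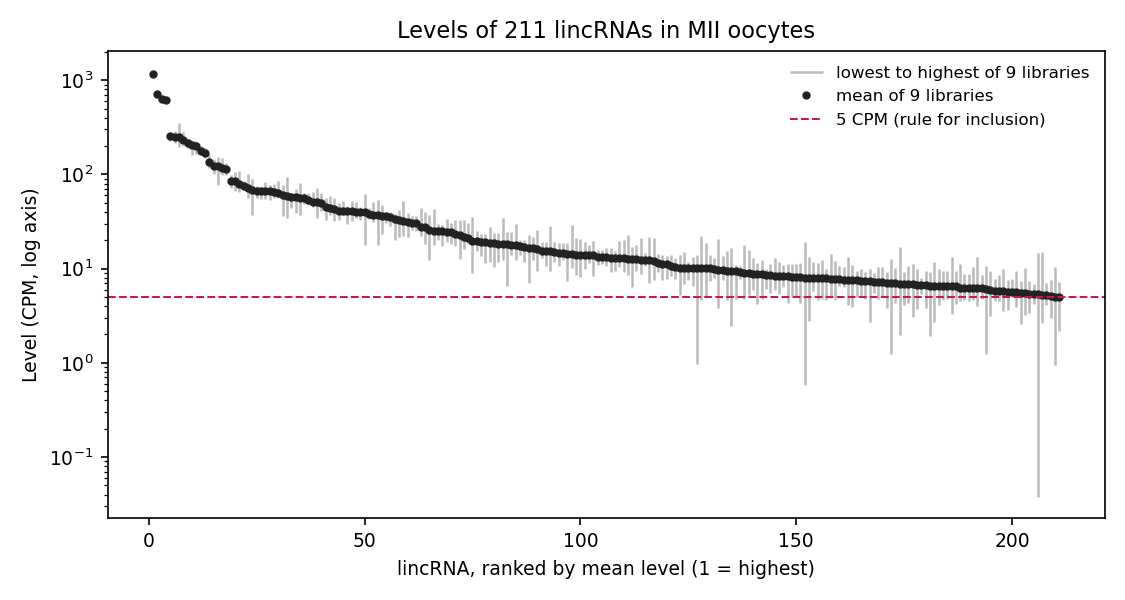
Mean level in CPM (log axis) of each of the 211 lincRNAs ranked from the highest, with grey bars from the lowest to the highest of the 9 libraries and a dashed line at 5 CPM. C86187 leads at 1172 CPM, and the longest grey bar among the low members belongs to Gm28652, which ran from 0.038 to 14.7 CPM.

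Per length, the 211 lincRNAs had a median of 12 FPKM (quartiles 6.09 and 23.2), with 1700020I14Rik lowest at 0.693 FPKM. The median of the 8545 protein-coding genes at 5 CPM or more was 8.26 FPKM, and 134 of the lincRNAs lay above it. Both sets were chosen by CPM, so a shorter gene needed a higher FPKM to enter, and the sets were not matched in length. In all, 17 exceeded 100 FPKM. C86187 had 465, 511 and 503 FPKM in GFP High, 488, 470 and 466 in the GFP Low pools and 477, 465 and 481 in RFP. In CPM after edgeR's TMM scaling, its 9 libraries had a coefficient of variation (CV, the SD as a percentage of the mean) of 3.09%. Per length it ranked 60th of all genes. Gm43303 followed at 374 FPKM (SD 43.5 over 9 libraries), with 339, 444 and 429 FPKM in GFP High, 355, 393 and 368 in the GFP Low pools and 330, 386 and 317 in RFP. Next came 1700018B24Rik at 281 FPKM (SD 26.6), Gm14664 at 268 FPKM (SD 33.1), Gm3143 at 256 FPKM (SD 52.7), Gm1965 at 254 FPKM (SD 11.6) and 4933427D06Rik at 242 FPKM (SD 10.3). Neighbours in this order from 1700018B24Rik to 4933427D06Rik overlapped in their ranges over libraries, whereas the lowest C86187 library was above the highest Gm43303 library.

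**Figure D2:**
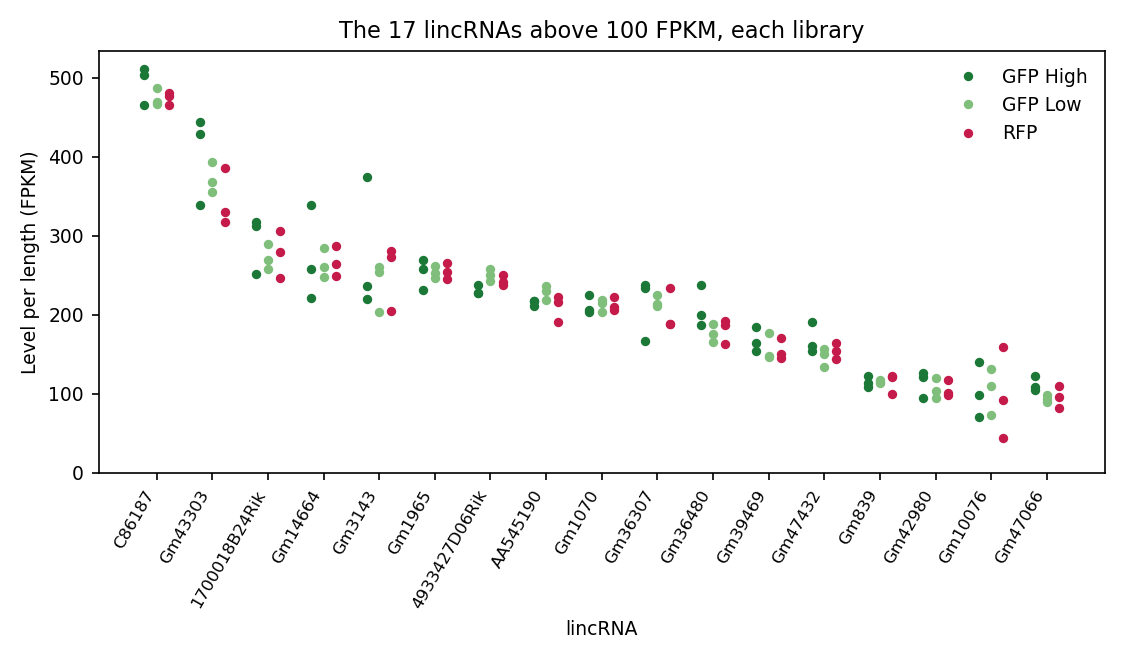
FPKM in each of the 9 libraries for the 17 lincRNAs above 100 FPKM, coloured by group. The 3 groups lie on top of each other for nearly every gene, from C86187 at 465 to 511 FPKM down to Gm47066.

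By counts the order was C86187 (1172 CPM), 4933427D06Rik (712 CPM), Gm1965 (629 CPM), Gm1070 (616 CPM), AA545190 (257 CPM), Gm43303 (252 CPM), Gm3143 (248 CPM), Gm36480 (230 CPM), Gm839 (214 CPM), Gm36307 (203 CPM), A730082K24Rik (200 CPM) and 1300002E11Rik (178 CPM). Gm1070 had 600, 575 and 650 CPM in the GFP High pools, 624, 588 and 637 in the GFP Low pools and 650, 615 and 606 in the RFP pools, so its groups overlapped. Gm36480 ran from 202 to 283 CPM, Gm36307 from 161 to 229 CPM, A730082K24Rik from 166 to 225 CPM and 1300002E11Rik from 159 to 203 CPM over the 9 libraries. The first 4 held 30.6 to 35.1% of the counts of the 211 lincRNAs in each library. All 211 together held 0.894 to 1.0% of a library's counts, with group means of 0.975% ± 0.0247 (SD, n = 3) in GFP High, 0.954% ± 0.00795 in the GFP Low pools and 0.951% ± 0.05 in RFP. In pooled eggs, fewer cells with an RNA and less of it per cell cannot be told apart.

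Chromosome 6 carried 5 of the 10 highest lincRNAs by CPM, although it held 17 of the 211 lincRNAs and 151 of all 2968. 4933427D06Rik, Gm1965 and Gm839 lie within chr6:88950683-89216237, with Plxna1 and Tpra1 as the nearest protein-coding genes. 4933427D06Rik and Gm1965 are on the plus strand and Gm839 on the minus strand. 4933427D06Rik stood at 670, 655 and 697 CPM in GFP High, 739, 759 and 718 in the GFP Low pools and 716, 742 and 710 in RFP, while Gm1965 had 574 to 666 CPM and Gm839 had 189 to 231 CPM. All 3 were high in every library, and their protein-coding neighbours were lower per length, Plxna1 at 9.93 FPKM and Tpra1 at 11.9 FPKM. Gm1070, at chr6:71293765-71302880 on the plus strand, overlaps Smyd1, a muscle methyltransferase gene on the other strand that had 0.015 FPKM. AA545190 lies at chr6:10971560-10979638 on the minus strand, 920654 bases from its nearest protein-coding neighbour Ndufa4, and ran from 228 to 280 CPM. With neighbouring members joined at gaps of up to 100 kb, 5 other places held a pair of lincRNAs.

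In median exon number, GC content and overlap with listed genes the 211 lincRNAs were close to the other 2757. Median gene length was 1411 against 1220 bases and median exon number was 3 in both. The transcripts' median GC content was 46.6% against 46.5%. Single-exon transcripts were rarer, at 1.9% against 6.3%. Of the 211, 166 (78.7%) overlapped no other listed gene, against 76.7%. In 35 cases a member overlapped a listed gene on the opposite strand, and since no source states that counting used strand, reads of such partners cannot be told apart. On the same strand, 17 members overlapped a listed gene, against 203 of the other lincRNAs, and there strand would not separate reads either. Among the 17 were 1300002E11Rik with Map3k13 (0.959 FPKM) and Gm43303 with D5Ertd615e (0.061 FPKM). In all, 96 (45.5%) lay more than 50 kb from the nearest protein-coding gene, against 44.6%. Of the 211, 5 (2.37%) started within 1 kb of a nearest protein-coding gene that runs the other way without overlap, against 158 (5.73%). Examples are 2210406O10Rik beside Grpel1, Snhg18 beside Sema5a and A430046D13Rik beside Myl6b. Overlapping pairs were not counted here, such as 1110020A21Rik with Ppm1b and 9330175E14Rik with Nlrc5, whose starts lay 969 and 747 bases apart. A further 7 (3.32%, against 2.32%) began on the same strand within 5 kb after a protein-coding gene, such as AC126942.2 after Smchd1 and Gm28784 after Gdap1, and reads running on from that gene would be counted with them.

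Copies limit how far some levels can be assigned. In all, 16 of the lincRNAs (7.62%, against 4.5% of the others) matched another listed gene in the same sense at 95% identity or more over at least 200 bases. Gm10076 matched the ribosomal protein gene Rpl41 at 99.5% identity over 99.7% of its length, and varied from 44.8 to 160 FPKM. Platr30 and Gm17575 were 99.7% identical over 1934 bases, and E330016L19Rik was 99.8% identical to Gm2309 over 1941 bases. Gm38025 and Gm16211 both matched Ccdc82, at 95.8% identity. The levels of these genes are uncertain, because reads could be assigned to either copy.

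Members with established names were few. Snhg18, a snoRNA host gene, had 18.5 CPM (11.7 to 24.0), and Snhg6, another snoRNA host, had 8.70 CPM (4.74 to 12.4). Pvt1, the neighbour of Myc, had 21.4 CPM (18.2 to 30.5). Platr30 had 19.8 CPM (9.06 to 35.7), the pseudogene-derived Zfp813-ps had 9.30 CPM (7.74 to 10.7) and Tmem250-ps had 6.51 CPM (4.60 to 9.5). Of 25 well-known lncRNAs, 21 were matched to the tables, 9 were at 5 CPM or more and 5 were members: C86187, Pvt1, Snhg6, 2900097C17Rik (Norad, a cytoplasmic decoy of Pumilio proteins) and 1700020I14Rik (Oip5os1 or Cyrano, which triggers decay of a microRNA). Norad had 7.42 CPM (4.75 to 9.22) and Cyrano 5.81 CPM (4.49 to 8.66). Outside the members, Tug1 had 38.4 CPM, Gas5 11.1 CPM, Xist, the RNA that coats the inactive X chromosome, 0.659 CPM, and Miat 0.018 CPM.

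The comparison of GFP High with RFP asked whether eggs picked for strong green fluorescence differed from eggs picked into the RFP group. No lincRNA passed edgeR's quasi-likelihood test at an adjusted p of 0.05: 0 of 211 were called, against 0.0135% of the 14829 genes tested, and DESeq2 and limma-voom also called 0. At an unadjusted p under 0.05 there were 2 lincRNAs (0.948%), against 4.09% of all genes tested. Nothing in the labels says that the replicates came from separate animals, so p-values measure the spread between these pools. The median log2 fold change was 0.064, against −0.006 over all genes, with 132 lincRNAs higher (62.6%) and 79 lower in GFP High, beside 49.3% higher over all genes. Without the third RFP library the median of the lincRNAs was 0.004. For 134 (63.5%) the 95% interval lay within a 2-fold change in either direction, and 3 (1.42%) had a fitted difference of 2-fold or more, against 10.1% of all genes tested and 0.66% of those at 5 CPM or more. The 3 libraries of GFP High did not overlap those of RFP for 12 lincRNAs (5.69%), against 12.1% of all genes tested. Of the 211 lincRNAs, 5 were higher and 7 lower in GFP High without overlap, against 682 (4.6%) and 1111 (7.49%) of the 14829 genes tested.

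Gm28387 (chr1:77942966-77972376, minus strand) had the smallest p. Its GFP High libraries held 10.1, 4.69 and 7.38 CPM, and the RFP libraries 3.22, 4.77 and 3.53 CPM. The highest RFP library lay just above the lowest GFP High library, so the groups overlapped. Its log2 fold change was 0.96 (SE 0.41, unadjusted p = 0.0422, adjusted p = 0.997 by edgeR). 1700028I16Rik was at 13.3, 11.6 and 3.33 CPM for GFP High and 4.85, 4.06 and 5.20 CPM for RFP, with a log2 fold change of 1.02 (SE 0.49, adjusted p = 0.997 by edgeR). The third GFP High library was below every RFP library. C86187, in contrast, had a log2 fold change of 0.04 (SE 0.07, 95% interval −0.11 to 0.20). In the authors' deposited table, no lincRNA had an adjusted p under 0.05 for this comparison, and the smallest p of a lincRNA was 0.0237 for Gm28387 (adjusted p = 0.559 by DESeq2).

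GFP Low against RFP compared eggs of weak green fluorescence with the same RFP libraries, so the results of both comparisons share those samples. Again 0 of 211 lincRNAs were called by edgeR, against 0.0197% of 15199 genes, and DESeq2 and limma-voom called 0. There were 3 (1.42%) at an unadjusted p under 0.05, against 2.62% of all genes tested. The median log2 fold change was −0.004, as over all genes, with 102 higher and 109 lower. For 202 lincRNAs (95.7%) the 95% interval stayed within a 2-fold change, and 2 (0.948%) had a fitted difference of 2-fold or more, against 3.9% of all genes tested and 0.151% of those at 5 CPM or more. The groups did not overlap for 11 lincRNAs (5.21%), against 7.72% of all genes tested. Of the 211 lincRNAs, 1 was higher and 10 were lower in GFP Low without overlap, against 532 (3.5%) and 641 (4.22%) of the 15199 genes tested. Gm39129, 1 of the 10 lower lincRNAs, had 6.24, 5.13 and 6.49 CPM in the GFP Low pools and 7.99, 9.14 and 8.91 CPM in RFP. Every GFP Low library was below every RFP library, and the log2 fold change was −0.54 (SE 0.21, unadjusted p = 0.0261, adjusted p = 1.0 by edgeR). Tbx3os2, a transcript beside the limb regulator gene Tbx3, was the 1 higher lincRNA, with 7.89, 7.64 and 17.7 CPM in the GFP Low pools and 6.93, 6.93 and 7.54 CPM in RFP (log2 fold change 0.65, SE 0.30, unadjusted p = 0.0498). The third GFP Low library stood apart from the other 5. Gm14055 had a log2 fold change of 0.51 (SE 0.23, unadjusted p = 0.0478). C86187 had one of −0.00 (SE 0.06, 95% interval −0.14 to 0.14).

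GFP High against GFP Low compared strong with weak green fluorescence. By edgeR 0 of the 210 lincRNAs tested were called, and 0% of all 14785 genes were. DESeq2 and limma-voom also called 0 of them. At an unadjusted p under 0.05 there were 3 lincRNAs (1.43%), against 3.77% of all genes tested. The median log2 fold change was 0.052 against −0.005 over all genes, with 125 higher (59.5%, beside 49.4% over all genes) and 85 lower, and 130 (61.9%) had a 95% interval within a 2-fold change. A fitted difference of 2-fold or more was seen for 0, against 10.4% of all genes tested and 0.454% of those at 5 CPM or more. The groups did not overlap for 14 (6.67%), against 11.7% of all genes tested. Of the 210 lincRNAs tested, 7 were higher and 7 lower in GFP High without overlap, against 664 (4.49%) and 1067 (7.22%) of the 14785 genes tested. Gm28784 stood at 18.0, 15.4 and 20.7 CPM for GFP High and 13.2, 8.06 and 11 CPM for GFP Low. The groups did not overlap, and its log2 fold change was 0.75 (SE 0.26, unadjusted p = 0.0168, adjusted p = 0.998 by edgeR). RFP, at 16.9, 13.6 and 9.24 CPM, spanned the gap between them. Gm47066 stood at 134, 147 and 129 CPM for GFP High and 111, 116 and 123 CPM in GFP Low (log2 fold change 0.23, SE 0.10, unadjusted p = 0.0454). Gm48893, whose transcript matches the complement of the egg gene Nlrp9b over 232 bases, had 15.7, 28.9 and 11.7 CPM against 11.6, 12.1 and 10.1 CPM (log2 fold change 0.75, SE 0.33), and 1 GFP High library carried most of that difference. 4933427D06Rik, the second highest lincRNA, lay in GFP High below both other groups without overlap, with a log2 fold change of −0.13 (SE 0.07) against GFP Low and −0.09 (SE 0.07) against RFP.

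**Figure D3:**
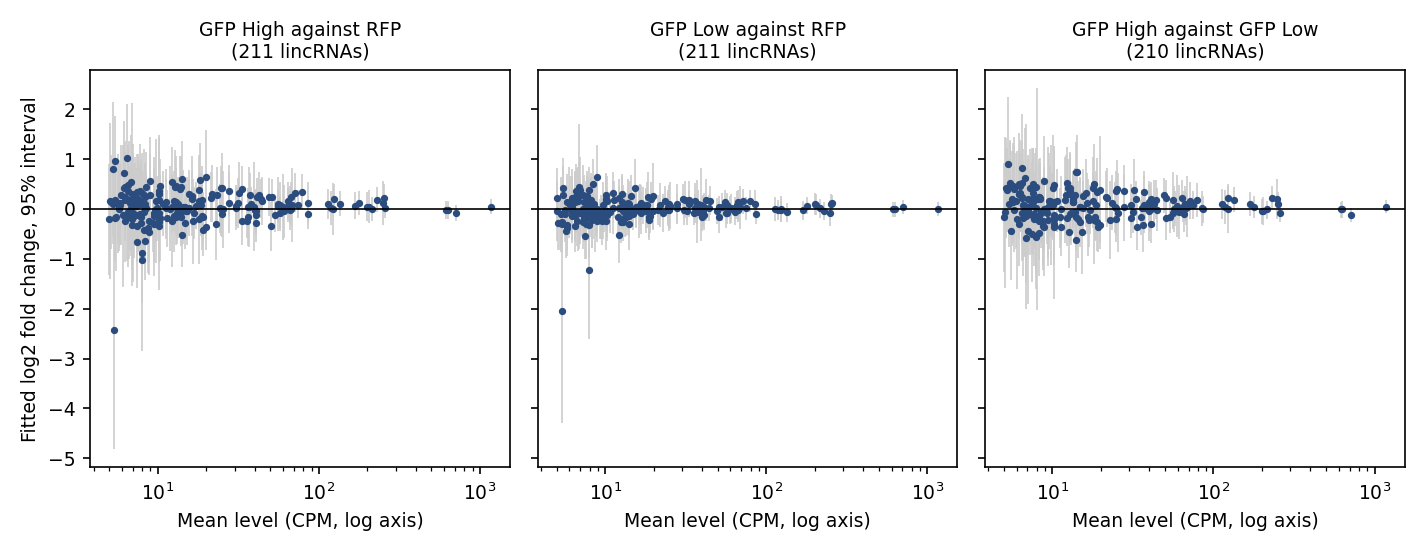
Fitted log2 fold change with its 95% interval against mean level in CPM (log axis) for the lincRNAs tested in each of the 3 comparisons. Points gather around 0 as the level rises, and the lowest point, in both comparisons with RFP, is Gm28652 at −2.43 and −2.05.

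Cumulus cell markers ran at 7.14 to 51.5 CPM summed in GFP High, 14.9 to 47.0 in the GFP Low pools and 16.3 to 66.8 in RFP, with only Cyp19a1 of the 12 at 5 CPM or more on average, and their part in any difference above was not tested. Summed oviduct markers were at 3.3 to 12.2 CPM. The oocyte markers summed to 10115 to 11299 CPM in GFP High, 9314 to 9807 CPM in the GFP Low pools and 9310 to 9859 CPM in RFP, and none of the 12 was called by edgeR in any comparison, with 4, 0 and 4 at an unadjusted p under 0.05 for GFP High against RFP, GFP Low against RFP and GFP High against GFP Low. Over all genes tested that share was 4.09%, 2.62% and 3.77%, so in both comparisons of GFP High the oocyte markers stood above it, and the part of this in the lincRNAs' values was not tested.

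The spread between replicates was widest in GFP High, the group with the fewest eggs per pool. The median CV of the lincRNAs over 3 replicates was 27.3% in GFP High, 12.8% in the GFP Low pools and 13.7% in RFP. For protein-coding genes at 5 CPM or more it was 16.8%, 9.22% and 10.2%. At matched level the distance was smaller: at 5 to 10 CPM the lincRNAs had 35.8%, 17.2% and 17.8%, and protein-coding genes 38.4%, 19.5% and 16.5%. At 50 CPM or more the lincRNAs had 14.8%, 6.6% and 9.68% against 10.8%, 6.24% and 7.73%. GFP High was the widest group for 152 lincRNAs (72.0%) and for 64.2% of the protein-coding genes. Pool size and group cannot be told apart in this design.

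**Figure D4:**
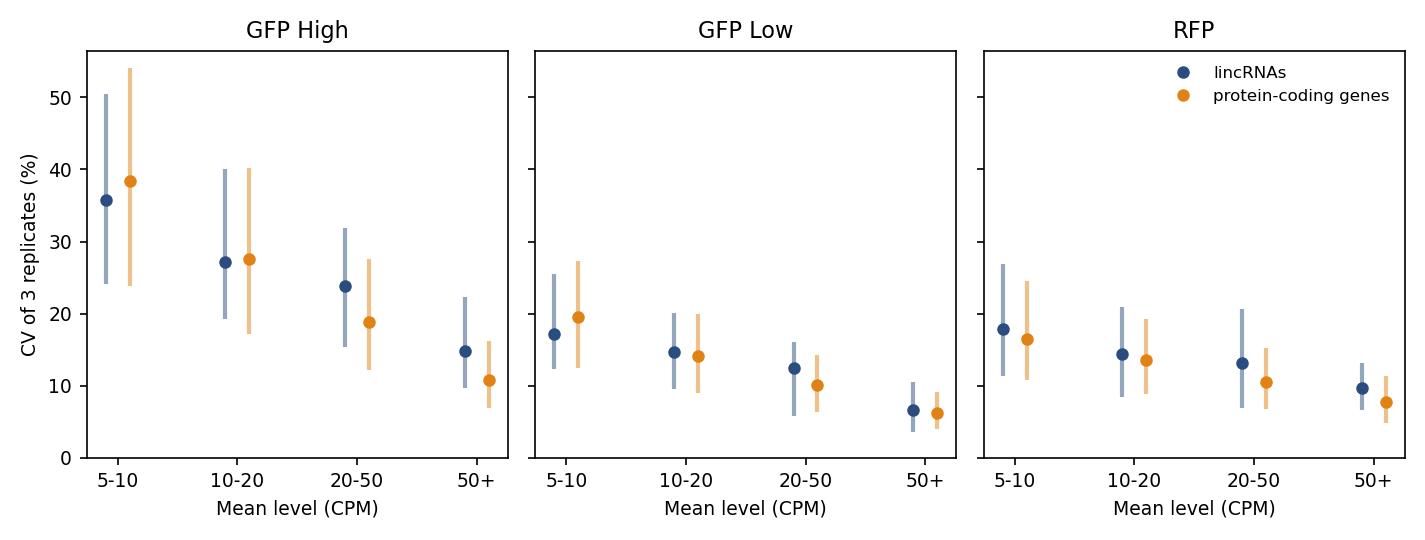
Median CV of 3 replicates (points) with quartiles (bars), in percent, for lincRNAs and protein-coding genes in 4 classes of mean level, in each group. GFP High lies highest in both kinds of gene, with medians for lincRNAs from 35.8% at 5 to 10 CPM to 14.8% at 50 CPM or more.

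A few lincRNAs varied far more than the rest, and did so within groups. Over the 9 libraries the median CV was 20.9%, and 100 lincRNAs were under 20%. Gm28652 (chr9:91337601-91340878, plus strand, 21535 bases from Zic4) reached 104% and was close to absent from 4 libraries. Its raw counts were 158, 2 and 7 in GFP High, 162, 1 and 2 in the GFP Low pools and 301, 174 and 395 in RFP. These are 5.80, 0.0802 and 0.315 CPM, 8.36, 0.038 and 0.0721 CPM, and 11.4, 7.68 and 14.7 CPM. All 3 RFP libraries and 1 library each of GFP High and GFP Low thus held the RNA, and the other 4 held 7 counts or fewer. Its fitted log2 fold change, which is loosely determined at such low counts, was −2.43 (SE 1.07, unadjusted p = 0.0474, adjusted p = 0.997 by edgeR) for GFP High against RFP, whose groups did not overlap. That value was −5.82 without the first GFP High library (adjusted p = 0.133 by edgeR) and −4.11 by limma-voom and with a replicate block, with no call in any of the 3. The fitted value was −2.05 (SE 1.03, adjusted p = 1.0 by edgeR) for GFP Low against RFP. Without a filter on low counts, edgeR called it in both, with adjusted p-values of 0.00218 and 2.56e-09, and leaving out the first GFP Low library also brought a call (adjusted p = 0.000416 by edgeR). It was not tested between GFP High and GFP Low, where the filter on low counts removed it.

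Gm29595, which is absent from GENCODE M21, had 16.9, 2.37 and 1.98 CPM in GFP High, 2.99, 4.90 and 15.6 CPM in the GFP Low pools and 3.83, 2.52 and 11 CPM in RFP. In each group 1 library stood far above the other 2. E330016L19Rik had 0.955, 2.65 and 14.7 CPM in GFP High, 7.95, 7.45 and 0.577 CPM in the GFP Low pools and 12.4, 19.4 and 5.64 CPM in RFP. It was low in 2 GFP High libraries and 1 GFP Low library, and it is the X-linked gene with near-identical copies named above. Its log2 fold change was −1.03 (SE 0.82) for GFP High and −1.23 (SE 0.64) for GFP Low against RFP, and edgeR without the filter called the latter (adjusted p = 0.000835). Gm30340 had 4.48, 15.0 and 2.92 CPM in GFP High, 5.00, 2.62 and 4.51 CPM in the GFP Low pools and 5.00, 2.65 and 5.38 CPM in RFP, so that 1 library stood out. The libraries that were high or low differed from gene to gene among these. Differences between the females, which were of mixed background, were not tested.

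**Figure D5:**
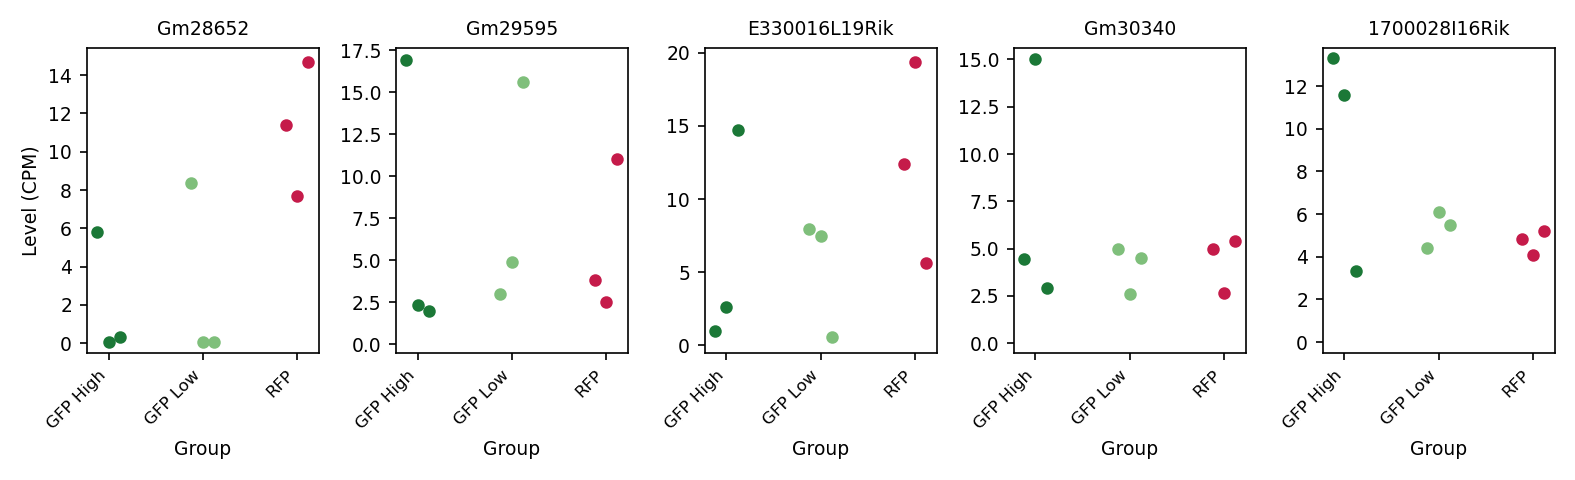
Level in CPM of the 5 lincRNAs with the largest CV over 9 libraries, 1 point per library, by group. Gm28652 is near 0 in 2 libraries of GFP High and 2 of GFP Low and between 7.68 and 14.7 CPM in RFP.

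Genes of the machinery that acts on such RNAs were read as lists. Of 18 genes of the nuclear RNA exosome and its adaptors, which degrade many non-coding transcripts, 17 were tested. Together with 18 cleavage and polyadenylation genes, 8 genes of RNA export and retention and 3 endo-siRNA genes, 46 genes were tested in each comparison. Of these, 0 were called in either direction in any comparison by edgeR, DESeq2 or limma-voom, and at an unadjusted p under 0.05 by edgeR there were 1, 1 and 3 for GFP High against RFP, GFP Low against RFP and GFP High against GFP Low, beside 4.09%, 2.62% and 3.77% of all genes tested. The smallest p-values in these lists were those of Dis3, a catalytic exosome subunit, with 15.2 CPM ± 3.39 (SD, n = 3) for GFP High, 23.2 ± 0.254 for the GFP Low pools and 23.4 ± 2.53 for RFP, and of Mphosph6, an exosome-associated protein, with 2953 ± 439, 2447 ± 68.7 and 2545 ± 365 CPM. Neither passed edgeR's test (adjusted p = 0.997 for both with GFP High set against RFP and 0.998 with it set against GFP Low). Dicer1 had 551 CPM (497 to 637), Ago2, the slicing Argonaute, 103 CPM (89.4 to 113), and Tarbp2, a Dicer partner, 36.5 CPM (28.4 to 46.9). Their median log2 fold changes for GFP High against RFP were −0.08 for the exosome list, 0.03 for polyadenylation, 0.04 for export and 0.16 for the endo-siRNA genes, against −0.006 over all genes tested.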

How the data were processed

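Poly-A RNA of oocyte pools was captured on oligo-dT beads, copied from random primers and read from both ends, per the labels' protocols. The submitters' processing notes name fastp, HISAT2 2.0.5, featureCounts 1.5.0-p3, DESeq2 1.20.0 and the build mm10. The authors deposited 3 tables, 1 per pair of groups, with 26775, 29099 and 26570 genes. Each deposited table gives raw read counts, which entered all tests, and the authors' FPKM, used for levels per length. The authors' normalised signal (count over a size factor) was not used. The authors' deposited log2 fold changes and p-values are quoted only under their name. Gene lengths are as deposited by the authors.

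Tables were joined by gene, with 0 set for 178 genes that a table lacked. All per-sample columns were mapped to a library. Library totals of 19381677 to 27746256 counts limit the precision: 5 CPM is 96.9 reads in the smallest, and the labels mention no molecular identifiers. Each comparison used its 6 libraries in edgeR 4.0.16 (R 4.3.3; filterByExpr, TMM, glmQLFit, glmQLFTest), with Benjamini-Hochberg adjustment over all genes tested and a threshold of 0.05. The fit was tested on simulated data. CVs and the overlap of groups were computed on CPM after TMM scaling, while the CPM values printed for libraries are counts over the library total. DESeq2 1.42.0, limma-voom (limma 3.58.1), other scalings, no filter, a replicate block and leaving out each library were the alternatives.

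Transcripts and positions are from GENCODE M21 (GRCm38), where 210 of the 211 lincRNAs were found. Antisense matches and copies were searched with blastn 2.17.0 among the transcripts of listed genes, and for C86187 at a lower identity chosen after its first result was seen. The members and gene lists were chosen with earlier results of these data known. Named lincRNAs are the 12 highest by CPM, the 5 highest by FPKM, the 3 with the smallest p in each comparison, the 5 with the largest CV, those with a name that is no clone name, and the 3 on each side of the limit. Members on which no result turns are given by their range over libraries. LincRNAs named for their promoter, antisense match, neighbour or copy were chosen after their values were seen. Exosc6, Foxj1, Cd52, Hba-a1, Hbb-bs, Hbb-bt, Tsix, Snhg3, Rmst and Lncenc1 of the lists were not matched to the tables. The 1 blood marker matched, Ptprc, summed to 0 to 0.45 CPM.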

Additional observations from a re-analysis of the deposited data

How the results depend on the processing

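With 3 libraries per group, depth and the spread between pools limit what could be called, most of all in GFP High. Under the alternatives tried the number of the 211 lincRNAs called stayed at 0 in all 3 comparisons except as follows. With no filter on low counts, 1 was called for GFP High against RFP (Gm28652, log2 fold change −2.44) and 2 for GFP Low against RFP (E330016L19Rik at −1.24 and Gm28652 at −2.06). Without the first GFP Low library, 1 was called for GFP Low against RFP (Gm28652, at a fitted −7.54 that rests on the near-absence of counts and is no bound), so that leaving out 1 library gave 0 to 1 there and 0 in the other comparisons. The cause of these changes beyond the setting itself was not tested.

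Genes called in all numbered 2 in GFP High against RFP, 3 in the GFP Low comparison with RFP and 0 between the GFP groups. The numbers were 12, 10 and 4 with DESeq2, 16, 34 and 16 with no filter, and 1 in each of the first 2 with limma-voom. Leaving out 1 library gave 0 to 2, 2 to 3 and 0 to 1. The 0 for GFP High against RFP came without the first or the third GFP High library and without the second or the third RFP library, and the 1 for GFP High against GFP Low came without the third GFP High library.

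Replicates that share a number deviated together with correlations of −0.106 to 0.12. Such small correlations cannot tell whether the numbers mark shared collections. Between GFP High and GFP Low, the first and second replicates correlated best with their own number (0.12 and 0.0719), and the third did not. With a replicate block, 0 lincRNAs were called in each comparison, genes called for GFP High against RFP numbered 4, and the median log2 fold changes of the lincRNAs were 0.04, −0.001 and 0.016. Not every sample correlated best with its own number.

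The median log2 fold change of the lincRNAs ranged from 0.004 to 0.084, from −0.058 to 0.033 and from 0.025 to 0.088 when 1 library was left out, and the number of lincRNAs at the limit from 209 to 213. The share of counts in the lincRNAs was 1.06% (GFP High), 1.03% (GFP Low) and 1.03% (RFP) when mitochondrial genes and the 10 most abundant genes were taken out of the total. C86187 in GFP Low against RFP ranged from −0.02 to 0.01 when 1 library was left out, with the sign turned at 0.00 without the second GFP Low library and 0.01 without the third GFP Low library or the third RFP library.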

Other observations

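The 2 lincRNAs that passed the limit but were left out by name varied widely between libraries. Gm26917 had 244, 0.32 and 31.6 CPM in GFP High, 185, 15.1 and 21.2 CPM in GFP Low and 169, 191 and 3.23 CPM in RFP. Malat1, a nuclear RNA of most somatic cells, had 39.6, 13.6 and 20.2 CPM in GFP High, 47.0, 15.3 and 23.3 CPM in GFP Low and 71.7, 45 and 18.4 CPM in RFP.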
